A study of Mus musculus with 10 samples.

Results

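The genes described here are 34 genes of glycolysis and of the cellular response to low oxygen, chosen by name: transporters of glucose and lactate, the enzymes that turn glucose into lactate, the kinases that set the pace of the pathway, the hypoxia-inducible factors (HIF) with their oxygen-sensing hydroxylases, and hypoxia targets outside glycolysis. Of these, 32 had a named probe set among 24704 genes measured, and the glucose-6-phosphate isomerase gene Gpi1 and the enolase gene Eno1 had no named probe set here. The 10 Affymetrix arrays measured an isolate enriched for the sinusoidal endothelium of the liver (LSEC), whose thin, perforated cells form the walls of the hepatic blood channels. The mice were female C57BL/6N animals, 10 weeks old at the start and fed for 10 weeks, and no allele or transgene is given for any of them. They received a CDAA diet (5 arrays, CDAA 1 to CDAA 5), in liver research usually short for a diet that lacks choline, is built from defined amino acids and brings about fatty liver with fibrosis, or the control diet labelled Std (5 arrays, Std 1 to Std 5). One label field gives the duration as 10 days for both diets, whereas the feeding protocol, for both, and the source names of the CDAA samples give 10 weeks. Each array held RNA of cells pooled from 3 mice and bound to magnetic beads against CD146, so a value stands for a pool and not for a single animal, and the spread is that between pools. Values are log2 signals on which a difference of 1 is a doubling of signal.

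Glycolysis breaks glucose down to pyruvate in the cytosol, and lactate dehydrogenase can reduce pyruvate to lactate, which leaves the cell through monocarboxylate transporters. Endothelial cells draw much of their energy from this route even when oxygen is present. Under low oxygen the HIF alpha subunits, encoded by Hif1a and Epas1, escape hydroxylation by the prolyl hydroxylases, pair with the subunit encoded by Arnt and raise the transcription of most glycolytic genes and of other targets such as Adm. HIF alpha is controlled mainly at the level of the protein, so the transcript levels given here do not measure its activity.

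Single members differed between the diets, in both directions. Slc2a1, the main glucose transporter of endothelium, the glycolytic enzymes Aldoc and Tpi1, the lactate transporter Slc16a1 and the prolyl hydroxylase Egln3 rose with CDAA, while the vasodilator peptide gene Adm, the HIF subunit gene Epas1, the muscle-type phosphofructokinase Pfkm and the stress-responsive gene Ndrg1 fell. Thus 5 of 32 members rose (15.6%) and 4 fell (12.5%) by limma, with p adjusted by Benjamini-Hochberg over all genes and a threshold of 0.05. Among all 24704 genes, 7.49% rose and 9.13% fell, 16.6% in all. These shares include many dim genes. With genes below the median signal left out, 14.9% of 12352 genes rose and 20.2% fell. In that fit 28 members remained, the 9 kept their calls, and Arnt and the lactate dehydrogenase gene Ldhb also fell. The median CDAA minus Std difference in log2 signal was 0.041 over the members and -0.021 over all genes. The values of the 5 CDAA and 5 Std arrays did not overlap for 6 members that were higher and 5 that were lower with CDAA, against 6.16% and 7.73% of all genes (13.9% either way). These 11 members were the 9 named above, the liver-type phosphofructokinase Pfkl and Arnt, the last pair of which did not pass the test. In the plot of each array for the 9 members that passed, the narrowest margin between the diets was that of Slc2a1, where the lowest CDAA array was at 7.68 and Std 3 at 7.63.

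**Figure D1:**
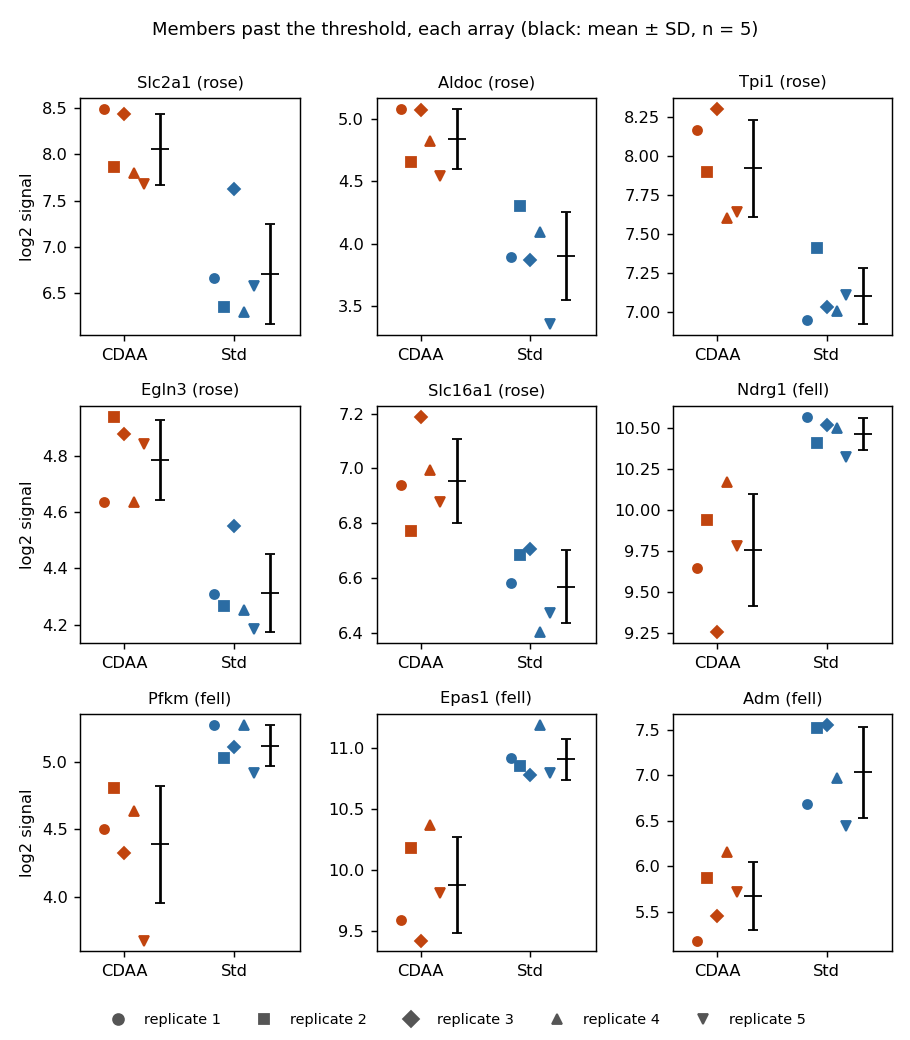
Log2 signal of the 9 members past the threshold in each of the 5 CDAA arrays (left) and 5 Std arrays (right), with symbols for the replicate number and the mean ± SD in black. Slc2a1, Aldoc, Tpi1, Egln3 and Slc16a1 lay higher in every CDAA array than in any Std array, and Ndrg1, Pfkm, Epas1 and Adm lay lower.

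Markers of several cell types differed between the diets, and their part in the results below was not tested. Pan-endothelial markers fell for 8 of 12 genes, with array means of 9.89 to 10.94 with CDAA and 11.13 to 11.25 with Std, and LSEC markers fell for 11 of 12, at 10.40 to 11.41 with CDAA and 11.89 to 12.05 with Std, so the labelled cell type's markers were bright in both diets. Recruited macrophage markers rose for 8 of 9 genes (8.26 to 9.74 with CDAA, 5.19 to 6.03 with Std), bile duct markers for 7 of 7 (7.31 to 8.17 with CDAA, 4.51 to 5.49 with Std), stellate cell and fibroblast markers for 6 of 10 and proliferation genes for 5 of 9. Of 10 Kupffer cell markers 5 fell, and of 9 hepatocyte markers 3 rose and 2 fell. None of 10 neutrophil markers passed limma's test, adjusted or not, and their mean was 4.71 to 5.45 with CDAA, 8.89 in Std 3 and 3.58 to 3.88 in the other Std arrays. CDAA 1 and CDAA 3 had the lowest pan-endothelial and the highest recruited macrophage means. Among the CDAA arrays they were also the highest pair for the stellate cell and fibroblast, bile duct, hepatocyte, neutrophil and proliferation means. The mean of the 2 erythroid markers measured was 2.90 to 3.27 with CDAA and 2.82 to 3.31 with Std, below the median of all probe sets, and neither passed. In bulk RNA fewer cells of a type and less RNA per cell cannot be told apart.

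The stretches of genome just before the start of the changed genes are shown because the core of the sequence that HIF binds is known, ACGTG or GCGTG, and the members that rose and those that fell can be compared for it. Shown are the 250 bases before the RefSeq start of the 7 changed members that have an entry (mouse build GRCm38.p6, first listed start, 5′ to 3′ on the gene's strand). Capitals mark ACGTG or GCGTG on either strand; where these overlap, as in CACGTG, they run together.
Slc2a1 (chr4:119108495-119108744, plus strand): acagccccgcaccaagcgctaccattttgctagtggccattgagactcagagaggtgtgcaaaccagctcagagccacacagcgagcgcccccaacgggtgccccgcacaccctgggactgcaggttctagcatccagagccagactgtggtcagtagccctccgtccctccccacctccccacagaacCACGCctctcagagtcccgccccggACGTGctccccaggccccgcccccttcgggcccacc
Aldoc (chr11:78322823-78323072, plus strand): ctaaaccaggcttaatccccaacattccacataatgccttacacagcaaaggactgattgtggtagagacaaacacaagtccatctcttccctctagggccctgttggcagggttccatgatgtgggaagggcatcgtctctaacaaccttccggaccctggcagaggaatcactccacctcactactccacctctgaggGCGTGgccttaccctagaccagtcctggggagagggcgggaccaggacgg
Tpi1 (chr6:124814159-124814408, minus strand): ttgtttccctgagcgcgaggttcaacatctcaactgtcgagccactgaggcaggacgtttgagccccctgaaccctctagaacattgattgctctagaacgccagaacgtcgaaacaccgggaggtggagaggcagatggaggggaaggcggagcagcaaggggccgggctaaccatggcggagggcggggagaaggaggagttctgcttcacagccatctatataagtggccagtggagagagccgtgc
Egln3 (chr12:54203875-54204124, minus strand): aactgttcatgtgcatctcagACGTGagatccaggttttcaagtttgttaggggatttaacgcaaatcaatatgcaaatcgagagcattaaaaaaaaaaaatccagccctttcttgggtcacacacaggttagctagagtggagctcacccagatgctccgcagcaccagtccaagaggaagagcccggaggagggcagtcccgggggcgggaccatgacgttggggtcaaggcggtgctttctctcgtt
Slc16a1 (chr3:104638414-104638663, plus strand): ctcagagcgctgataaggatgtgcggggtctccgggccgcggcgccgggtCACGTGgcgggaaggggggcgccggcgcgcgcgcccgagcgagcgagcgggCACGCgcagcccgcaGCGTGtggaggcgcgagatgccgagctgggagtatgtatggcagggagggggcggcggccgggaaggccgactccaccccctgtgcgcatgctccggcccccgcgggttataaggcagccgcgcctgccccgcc
Adm (chr7:110627407-110627656, plus strand): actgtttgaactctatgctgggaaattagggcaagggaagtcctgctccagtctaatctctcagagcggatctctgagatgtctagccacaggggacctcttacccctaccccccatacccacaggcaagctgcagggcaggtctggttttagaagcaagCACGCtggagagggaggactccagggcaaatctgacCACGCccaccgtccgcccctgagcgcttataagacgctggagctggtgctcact
Pfkm (chr15:98092339-98092588, plus strand): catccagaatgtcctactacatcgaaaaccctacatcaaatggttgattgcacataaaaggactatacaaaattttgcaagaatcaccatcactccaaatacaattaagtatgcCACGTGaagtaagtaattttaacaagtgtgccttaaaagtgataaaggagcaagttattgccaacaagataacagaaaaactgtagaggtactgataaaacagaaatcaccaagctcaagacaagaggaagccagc
A match stood in 4 of the 5 risen and in both of the fallen members shown, and none in Tpi1. Epas1 and Ndrg1, which fell, have no entry. Pfkm has 4 listed starts and Aldoc 2, of which only the first was searched. Among the 22 members with an entry that did not pass, 18 had one (81.8%). Over all 29 members with an entry it was 24, or 82.8%, against 38.6% of 27025 RefSeq starts, where ACGTG alone was in 16.6% and GCGTG alone in 28.2%. The members' stretches had a median GC content of 62.8%, against 52.0% over all starts, and both motifs hold the CG step. A match is a run of letters and not a measured binding site.

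Among the transporters, Slc2a1 carried the largest rise of any member. This gene encodes GLUT1, which takes up glucose independently of insulin. It was at 8.50, 7.86, 8.44, 7.80 and 7.68 in CDAA 1 to CDAA 5, against 6.66, 6.35, 7.63, 6.29 and 6.57 in Std 1 to Std 5. All CDAA arrays lay above all Std arrays, with CDAA 1 and CDAA 3 the highest, and Std 3 stood apart from the other Std arrays. The difference was 1.36 ± 0.25 in log2 signal (SE, limma adjusted p = 0.00345), 2.56-fold higher signal with CDAA, and it was 1.59 without Std 3. Slc16a1, which encodes the monocarboxylate transporter MCT1, was at 6.94, 6.77, 7.19, 6.99 and 6.88 in CDAA 1 to CDAA 5, against 6.58, 6.68, 6.71, 6.40 and 6.47 in Std 1 to Std 5. The groups did not overlap, yet the difference was small, at 0.39 ± 0.10 (SE, limma adjusted p = 0.0237). It did not pass without Std 1 (0.39), Std 4 (0.34) or Std 5 (0.36), nor without CDAA 1 and CDAA 3 (0.31). Slc16a3 encodes MCT4, the lactate exporter of strongly glycolytic cells. Its values were 5.58, 5.29, 5.63, 5.11 and 5.51 in CDAA 1 to CDAA 5, against 4.34, 4.67, 6.65, 4.53 and 4.46 in Std 1 to Std 5. The CDAA arrays lay above 4 of the Std arrays and below Std 3. The difference of 0.50 ± 0.37 did not pass (SE, limma adjusted p = 0.435), but without Std 3 it was 0.92 with a limma adjusted p of 0.000928. Slc2a3, the high-affinity glucose transporter GLUT3 of neurons and leukocytes, was at 5.32, 4.58, 4.96, 5.16 and 4.49 in CDAA 1 to CDAA 5, against 4.42, 4.46, 8.05, 4.21 and 4.85 in Std 1 to Std 5. Std 3 was far above every other array, and the difference was -0.29 ± 0.60 with all arrays and 0.42 without Std 3, neither past the threshold (SE, limma adjusted p = 0.815 and 0.176).

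The glycolytic enzymes did not move together. Of 15 measured, 2 rose and 1 fell (13.3% and 6.67%, beside 7.49% and 9.13% of all genes), and the median difference was 0.044. On so few genes these counts do not set the enzymes apart from all genes. Aldoc, the brain-type aldolase, was at 5.08, 4.66, 5.07, 4.83 and 4.55 in CDAA 1 to CDAA 5, against 3.89, 4.31, 3.87, 4.09 and 3.36 in Std 1 to Std 5. The groups were separate, although Std 3 and Std 5 lay below the median of all probe sets, 3.89, where a signal is not known to exceed background. The difference of 0.93 ± 0.17 (SE, limma adjusted p = 0.00329) was 1.91-fold. Tpi1, triosephosphate isomerase, which interconverts the products of aldolase, was at 8.17, 7.89, 8.30, 7.60 and 7.64 in CDAA 1 to CDAA 5, against 6.95, 7.41, 7.03, 7.01 and 7.11 in Std 1 to Std 5. It was higher in all CDAA arrays, highest in CDAA 3 and CDAA 1, and rose by 0.82 ± 0.15 (SE, limma adjusted p = 0.00313), 1.77-fold. Pfkm, the muscle-type subunit of phosphofructokinase, was at 4.50, 4.80, 4.32, 4.64 and 3.67 in CDAA 1 to CDAA 5, against 5.27, 5.03, 5.11, 5.27 and 4.92 in Std 1 to Std 5. Every CDAA array lay below every Std array, with CDAA 5 lowest and below the median of all probe sets. The gene fell by 0.73 ± 0.18 (SE, limma adjusted p = 0.0166), 1.66-fold lower, but without CDAA 1 and CDAA 3 the difference of -0.75 did not pass.

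Of the hexokinases, which trap glucose in the cell, Hk2 and Hk3 were highest in CDAA 3 and CDAA 1. Hk2, the isoform induced by hypoxia and growth signals, was at 6.91, 5.90, 7.67, 5.99 and 5.95 in CDAA 1 to CDAA 5, against 5.67, 6.11, 6.28, 5.48 and 5.79 in Std 1 to Std 5. Only CDAA 1 and CDAA 3 lay above all Std arrays, and the difference of 0.62 ± 0.32 did not pass (SE, limma adjusted p = 0.229) and was 0.083 without both arrays. Hk3, the myeloid hexokinase, had a similar order, at 6.78, 6.22, 7.42, 5.63 and 6.26 in CDAA 1 to CDAA 5, against 5.27, 5.89, 6.75, 5.10 and 5.64 in Std 1 to Std 5. CDAA 3 was highest, CDAA 1 and Std 3 came next, and the difference of 0.73 ± 0.35 did not pass (SE, limma adjusted p = 0.193). Hk1, the housekeeping isoform, was at 7.20 to 7.95 with CDAA and 7.67 to 7.76 with Std, with an estimate of -0.033 and a 95% interval of -0.32 to 0.26.

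At the end of the pathway the lactate dehydrogenase genes had estimates of opposite sign. Ldha, whose subunit favours lactate formation, was at 9.44, 9.29, 9.35, 9.01 and 9.14 in CDAA 1 to CDAA 5, against 8.74, 8.96, 9.27, 8.69 and 8.97 in Std 1 to Std 5. CDAA 1 to CDAA 3 lay above all Std arrays, and CDAA 4 and CDAA 5 below Std 3. The difference of 0.32 ± 0.13 did not pass (SE, limma adjusted p = 0.116); without Std 3 it was 0.41 and passed (limma adjusted p = 0.0387). Ldhb, whose subunit favours the return of lactate to pyruvate, was at 7.32, 7.91, 7.67, 8.20 and 8.25 in CDAA 1 to CDAA 5, against 8.37, 8.45, 8.12, 8.38 and 8.44 in Std 1 to Std 5. CDAA 1 to CDAA 3 were below all Std arrays and CDAA 4 and CDAA 5 within them, and the difference of -0.49 ± 0.17 did not pass (SE, limma adjusted p = 0.065), although it did without CDAA 4 (-0.57) or CDAA 5 (-0.58). Pfkl, the liver-type phosphofructokinase, had CDAA values of 7.67 to 7.75 and Std values of 7.32 to 7.62; the groups did not overlap, but the difference of 0.23 ± 0.083 did not pass (SE, limma adjusted p = 0.085). Pkm, pyruvate kinase, was at 8.89 to 9.30 with CDAA and 8.72 to 9.25 with Std, an estimate of 0.22 (limma adjusted p = 0.284). Estimates for Pgk1, phosphoglycerate kinase, and Pfkp, the platelet-type phosphofructokinase, were 0.044 and 0.014, with 95% intervals of -0.32 to 0.41 and -0.21 to 0.24. Aldoa, the main aldolase of most tissues, and Pgam1, phosphoglycerate mutase, had estimates of -0.21 and -0.32, short of the threshold (limma adjusted p = 0.571 and 0.486). Aldoa signals were low, at 3.70 to 4.86 with CDAA and 4.11 to 4.81 with Std, with CDAA 5 below the median of all probe sets. Eno2, the neuronal enolase, lay below that median on all 10 arrays, and Pgam1 did on 6 of 10. Gapdh, a glycolytic enzyme that every cell uses and no member of the list, also lay below that median on all 10 arrays, at 2.38 to 2.86 with CDAA and 2.25 to 2.73 with Std, so a low signal here cannot be read as a low transcript level.

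**Figure D2:**
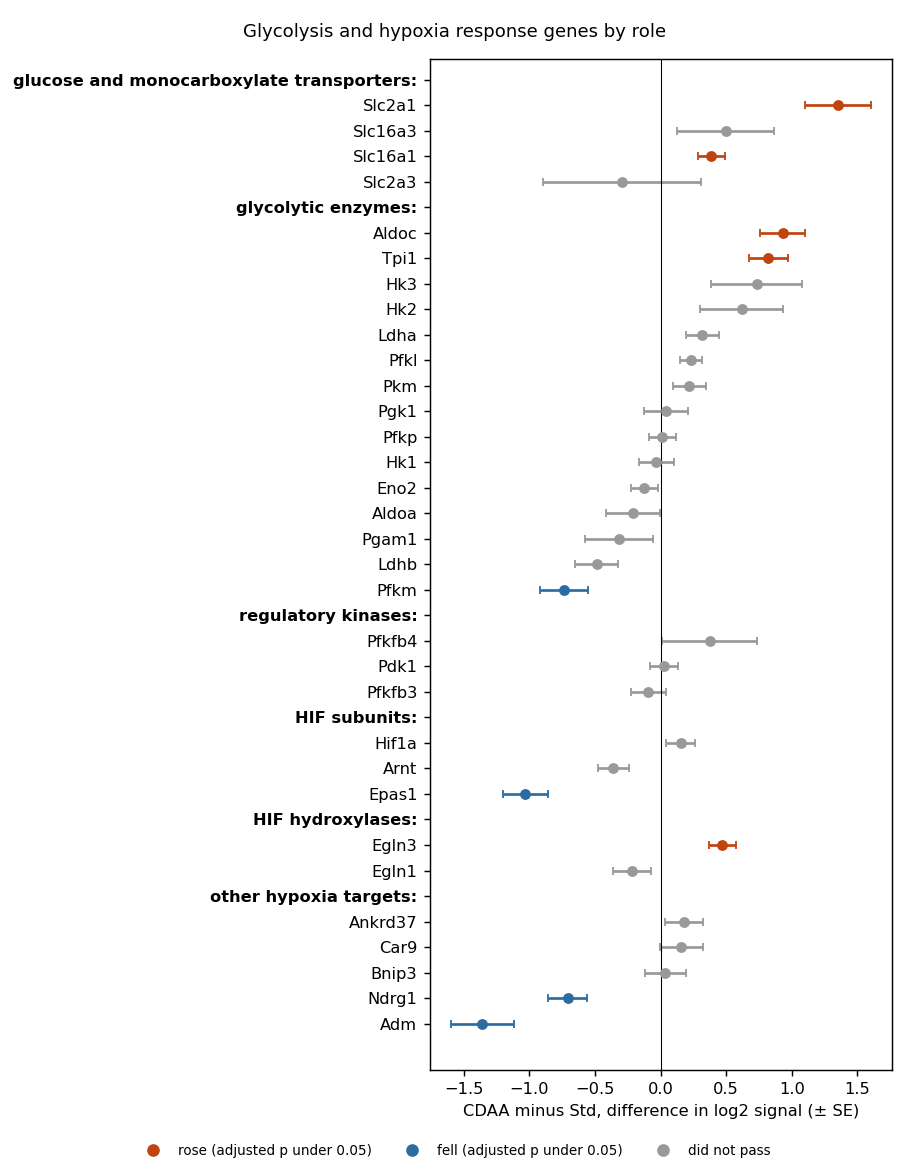
CDAA minus Std difference in log2 signal (± SE, limma, 5 arrays per diet) for the 32 measured members, ordered within their roles from highest to lowest estimate. The estimates run from 1.36 for Slc2a1 to -1.36 for Adm, and 23 of the members did not pass.

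None of the 3 regulatory kinases passed limma's test, adjusted or not. Pfkfb3 and Pfkfb4 make and remove fructose 2,6-bisphosphate, the activator of phosphofructokinase, and Pfkfb3 is the form that drives glycolysis in sprouting endothelium. Pfkfb3 was at 6.58, 6.36, 6.56, 6.28 and 6.25 in CDAA 1 to CDAA 5, against 6.71, 6.22, 6.32, 6.85 and 6.39 in Std 1 to Std 5. The groups overlapped widely, with an estimate of -0.092 and a 95% interval of -0.39 to 0.20. Pfkfb4 was at 5.33, 4.79, 5.81, 4.24 and 5.01 in CDAA 1 to CDAA 5, against 4.58, 4.10, 6.01, 4.25 and 4.38 in Std 1 to Std 5. Its highest array was Std 3, and its estimate of 0.37 ± 0.36 did not pass (SE, limma adjusted p = 0.566). Pdk1, which keeps pyruvate out of the mitochondria by phosphorylating pyruvate dehydrogenase, was at 6.42 to 6.75 with CDAA and 6.42 to 6.88 with Std, with a 95% interval of -0.21 to 0.26 for the difference.

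In the HIF system the alpha subunits differed from each other. Epas1, which encodes HIF-2 alpha, the subunit typical of endothelium, was at 9.59, 10.17, 9.42, 10.37 and 9.81 in CDAA 1 to CDAA 5, against 10.91, 10.85, 10.78, 11.19 and 10.79 in Std 1 to Std 5. All CDAA arrays were below all Std arrays, lowest in CDAA 3 and CDAA 1, and the gene fell by 1.03 ± 0.17 (SE, limma adjusted p = 0.00192), 2.04-fold lower. Hif1a, the subunit that most cells share, was at 7.89, 8.36, 8.17, 8.29 and 8.48 in CDAA 1 to CDAA 5, against 7.99, 8.20, 8.04, 8.09 and 8.12 in Std 1 to Std 5. The groups overlapped, with an estimate of 0.15 ± 0.11 and a 95% interval of -0.093 to 0.40 (SE, limma adjusted p = 0.432). Arnt, the common partner, was at 8.26, 8.37, 7.91, 8.54 and 8.44 in CDAA 1 to CDAA 5, against 8.73, 8.56, 8.75, 8.70 and 8.58 in Std 1 to Std 5. The CDAA arrays all lay below the Std arrays, narrowly so for CDAA 4 and Std 2, and the difference of -0.36 ± 0.12 did not pass (SE, limma adjusted p = 0.0565); it passed without CDAA 4 (-0.42), with genes below the median signal or the dimmest 25% left out, and with an intensity trend and robust variance (limma adjusted p = 0.0313, 0.0365, 0.0493 and 0.0427). Over all its alternatives the adjusted p ran from 0.0313 to 1, and with the pan-endothelial covariate the difference was 0.0045. Of the prolyl hydroxylases that mark HIF alpha for destruction, Egln3, itself a HIF target, was at 4.64, 4.94, 4.88, 4.63 and 4.84 in CDAA 1 to CDAA 5, against 4.31, 4.27, 4.55, 4.25 and 4.18 in Std 1 to Std 5. It was higher in all CDAA arrays and rose by 0.47 ± 0.10 (SE, limma adjusted p = 0.00821), 1.39-fold, within a narrow range of low signals. Egln1, the main oxygen sensor, was at 7.26 to 8.08 with CDAA and 7.70 to 8.11 with Std and differed by -0.22, which did not pass (limma adjusted p = 0.372).

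The 5 members classed as other hypoxia targets, outside glycolysis, held no rise and 2 falls by limma, also before adjustment. Egln3, a HIF target too, was classed with the hydroxylases and rose. After adjustment 7.49% of all genes rose and 9.13% fell. Before it 6994 of 24704 genes had a limma p under 0.05 in either direction. Adm, which encodes adrenomedullin, a vasodilator peptide that endothelium makes and responds to, was at 5.18, 5.87, 5.45, 6.15 and 5.72 in CDAA 1 to CDAA 5, against 6.68, 7.52, 7.55, 6.97 and 6.44 in Std 1 to Std 5. Every CDAA array was below every Std array, the nearest being CDAA 4 and Std 5. The gene fell by 1.36 ± 0.24 (SE, limma adjusted p = 0.0025), 2.56-fold lower, the largest fall of any member. Ndrg1, a gene induced by hypoxia, metals and differentiation, was at 9.65, 9.94, 9.26, 10.17 and 9.78 in CDAA 1 to CDAA 5, against 10.57, 10.41, 10.52, 10.50 and 10.33 in Std 1 to Std 5. The groups did not overlap, CDAA 3 was lowest, and the gene fell by 0.71 ± 0.15 (SE, limma adjusted p = 0.00683), 1.63-fold lower. Bnip3, a mitophagy receptor and standard hypoxia marker, was at 6.47, 6.97, 6.99, 6.80 and 6.89 in CDAA 1 to CDAA 5, against 6.89, 7.13, 6.98, 6.54 and 6.40 in Std 1 to Std 5. The groups overlapped throughout, with an estimate of 0.037 and a 95% interval of -0.30 to 0.37. Ankrd37 and Car9, which are strongly hypoxia-induced in tumour cells, lay at or below the median of all probe sets on 10 and 9 of 10 arrays, with differences of 0.18 and 0.16 that did not pass (limma adjusted p = 0.489 and 0.599). The median difference over these 5 genes was 0.037, beside 0.044 over the 15 glycolytic enzymes and -0.021 over all genes, so neither median was far from that of all genes, and the split of 0 rises and 2 falls against 2 rises and 1 fall rests on few genes and was not tested.

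Other genes of the same pathways, from lists drawn up by function, held rises and falls too. Of 23 further hypoxia targets measured, 6 rose and 1 fell, where 7.49% of all genes rose and 9.13% fell. Vegfa, the endothelial growth factor and a standard HIF target, was at 8.07, 7.26, 8.09, 7.25 and 7.33 in CDAA 1 to CDAA 5, against 6.47, 5.87, 6.51, 6.28 and 6.09 in Std 1 to Std 5. The groups were well apart, and Vegfa rose by 1.36 ± 0.20 (SE, limma adjusted p = 0.000908), 2.56-fold. Adm and Vegfa, both targets of HIF, thus lay on opposite sides. Tfrc, the transferrin receptor, rose by 0.93 (0.59 without CDAA 1 and CDAA 3), Pdgfb, a growth factor for pericytes and stellate cells, by 0.80 (0.53 without both), and the collagen-modifying enzymes Plod2 and Lox by 0.67 and 0.53. All Std values of Tfrc (3.15 to 3.58) and Plod2 (3.21 to 3.46) and that of Plod2 in CDAA 5 (3.71) lay below the median of all probe sets, where a signal is not known to exceed background, and the same held for Lox in Std 1 and Std 3. Lox did not pass without CDAA 1 and CDAA 3 (0.44). Bhlhe40, a circadian and hypoxia-responsive repressor, rose by 0.81 but did not pass without CDAA 1, CDAA 3, Std 2, Std 4 or Std 5, with 0.60 to 0.92 over all single omissions. Ero1a, an oxidase of protein folding, fell by 0.33 and lost its call on omitting CDAA 1, CDAA 2, CDAA 3, CDAA 5, Std 2, Std 3 or Std 5, with -0.38 to -0.29. Among 9 further HIF pathway genes only P4ha2 passed, which encodes a collagen prolyl hydroxylase and is induced by hypoxia. It was at 4.37, 4.52, 3.99, 4.62 and 3.40 in CDAA 1 to CDAA 5, against 5.76, 5.74, 5.57, 5.67 and 5.61 in Std 1 to Std 5, and it fell by 1.49 ± 0.20 (SE, limma adjusted p = 0.000463), 2.81-fold lower, with every CDAA array below every Std array and CDAA 5 below the median of all probe sets. With the pan-endothelial marker mean as a covariate none of these 8 genes passed: Vegfa was at 0.74 (limma adjusted p = 0.171), P4ha2 at -1.24 (0.083) and Plod2 at 0.70 (0.11). Tfrc then fell short at 0.17, Pdgfb at 0.24, Bhlhe40 at 0.16, Lox at 0.40 and Ero1a at -0.31.

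The receptor side of adrenomedullin was measured too, with 6 genes of which 2 rose and 1 fell (over all genes, 7.49% rose and 9.13% fell). Calcrl, the receptor that binds adrenomedullin together with a RAMP protein, was at 10.17, 10.91, 9.91, 11.03 and 10.85 in CDAA 1 to CDAA 5, against 11.43, 11.41, 11.37, 11.46 and 11.43 in Std 1 to Std 5. The Std arrays were almost alike, the CDAA arrays were all lower, and Calcrl fell by 0.84 ± 0.20 (SE, limma adjusted p = 0.0112). Without CDAA 1 and CDAA 3 the difference was -0.49 and passed, and with the pan-endothelial covariate it was -0.08 and did not (limma adjusted p = 0.838). Ramp2, its partner for adrenomedullin in endothelium, was at 9.11 to 9.94 with CDAA and 9.97 to 10.19 with Std. The arrays did not overlap, but the difference of -0.51 ± 0.16 missed the threshold (SE, limma adjusted p = 0.0508) and passed without CDAA 4 (-0.58) or CDAA 5 (-0.60); with the covariate it was 0.017. Ramp1, which directs the receptor to another peptide of the family, rose by 0.58 at low signals (4.02 to 4.33 with CDAA, 3.28 to 3.83 with Std), all Std values being below the median of all probe sets, and with the covariate its 0.52 did not pass (limma adjusted p = 0.247). Ackr3, a scavenging receptor that also takes up adrenomedullin, was at 6.11, 6.79, 5.45, 6.54 and 6.88 in CDAA 1 to CDAA 5, against 5.57, 5.56, 5.59, 5.15 and 5.69 in Std 1 to Std 5. CDAA 3 lay among the Std arrays and the other CDAA arrays above them. It rose by 0.84 ± 0.24 (SE, limma adjusted p = 0.0296), and the call was lost on omitting CDAA 2, CDAA 4, CDAA 5, Std 1, Std 2 or Std 4, at 0.71 to 1.07 over single omissions. The estimate was larger and passed without CDAA 3 (1.07, limma adjusted p = 0.00165), without CDAA 1 and CDAA 3 (1.23, 0.000627) and with the covariate (1.62, 0.0109). Of the 25 called pathway genes named outside the member list, Ackr3 was the 1 that passed with the covariate, and all 25 kept their sign.

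**Figure D3:**
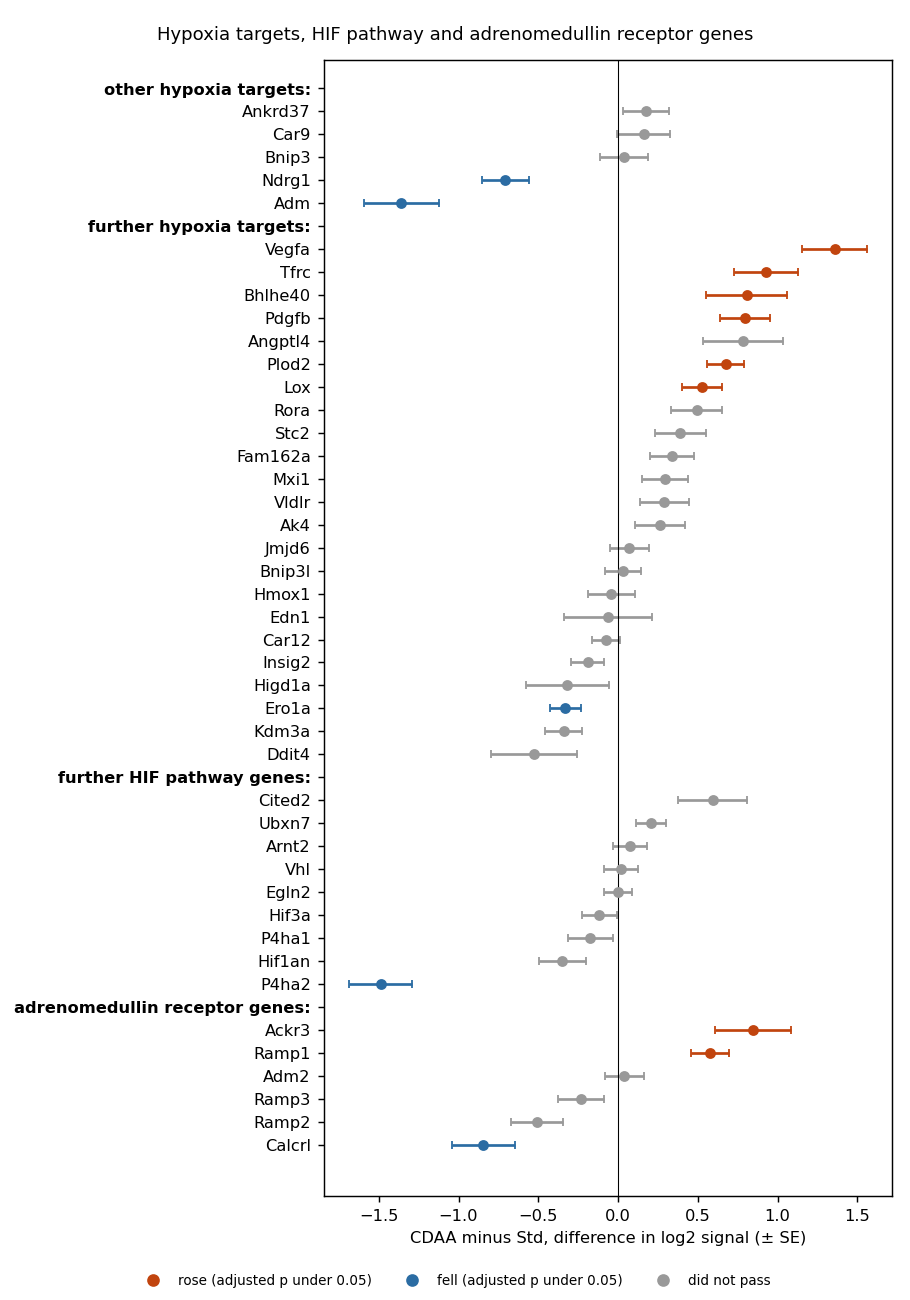
CDAA minus Std difference in log2 signal (± SE, limma, 5 arrays per diet) for the 5 members classed as other hypoxia targets and for 3 further lists. Adm at -1.36 and P4ha2 at -1.49 lay lowest, Vegfa at 1.36 highest.

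Of 9 further glycolysis genes 2 rose and 1 fell (over all genes, 7.49% rose and 9.13% fell). Hkdc1, a hexokinase domain protein, was at 4.99 to 6.07 with CDAA and 4.03 to 4.42 with Std and rose by 1.10 ± 0.19 (SE, limma adjusted p = 0.00207). Pfkfb2, the heart-type relative of Pfkfb3, fell by 0.49 ± 0.11 (SE, limma adjusted p = 0.0099). Pklr, the pyruvate kinase of liver and red cells, rose by 0.77; the call was lost on omitting CDAA 2, CDAA 3, CDAA 4 or any one Std array, at 0.59 to 0.89 over single omissions. With the covariate none of these passed, at 0.45 for Hkdc1, -0.46 for Pfkfb2 and 0.49 for Pklr. A list of 13 gluconeogenesis and glycogen genes, which includes the transporter gene Slc2a2, had 2 rises, again beside 7.49% of all genes. In the same list G6pc, Pck1 and Pck2 did not pass, at -0.28, 0.19 and -0.078. G6pc lay at or below the median of all probe sets on 9 of 10 arrays. Fbp1, the phosphatase that opposes phosphofructokinase, was at 5.75, 6.41, 6.72, 5.89 and 5.87 in CDAA 1 to CDAA 5, against 4.73, 4.87, 4.16, 4.55 and 3.82 in Std 1 to Std 5. The groups were far apart, and Fbp1 rose by 1.70 ± 0.23 (SE, limma adjusted p = 0.000527), 3.26-fold. Slc2a2, which encodes GLUT2, the glucose transporter of hepatocytes and other epithelia, rose by 1.47 ± 0.28 (SE, limma adjusted p = 0.00369). With the covariate Fbp1 was at 1.45 and Slc2a2 at 0.98, and neither passed (limma adjusted p = 0.0893 and 0.325). The hepatocyte markers Alb, Ttr and Trf rose too, by 1.28, 1.54 and 1.35, and Cyp2e1 and Ass1 fell by 1.13 and 1.18; the part of these cells in the rise of Fbp1 and Slc2a2 was not tested.

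Related genes were then set against each other within each array, which shows whether their differences between diets were unequal. For 11 pairs with both genes measured, the difference in log2 signal between the genes was compared between diets with a two-sided exact permutation test over 252 arrangements, whose smallest p is 0.00794, and adjusted over the pairs. In 6 pairs the differences between diets were unequal. Slc2a1 shifted against Slc2a3 by 1.65 (exact permutation test, adjusted p = 0.0218), in 5 of 5 CDAA arrays beyond all Std arrays. Part of this shift came from Std 3, where Slc2a3 was at 8.05. Without Std 3 it was 1.17 and passed (exact permutation test, adjusted p = 0.0291). Hif1a minus Epas1 was -1.63 ± 0.35 with CDAA and -2.81 ± 0.19 with Std (SD, n = 5 each). That was a shift of 1.18 (exact permutation test, adjusted p = 0.0218). Aldoc shifted against Aldoa by 1.14 and Pfkm against Pfkl by -0.96, again with all CDAA arrays beyond all Std arrays and an exact adjusted p = 0.0218. Both aldolase signals were low, below the median of all probe sets on 2 arrays for Aldoc and 1 for Aldoa. Ldhb shifted against Ldha by -0.81 and Egln3 against Egln1 by 0.69, in 3 of 5 CDAA arrays each beyond all Std arrays (exact permutation test, adjusted p = 0.0437 for each). Both shifts passed without CDAA 4 (-0.95 and 0.74) or Std 3 (-0.95 and 0.81), but with any other array left out they did not, at -0.93 to -0.62 and 0.61 to 0.76, where the smallest p of 126 arrangements is 0.0159. The pairs Slc16a3 and Slc16a1, Hk2 and Hk1, Hk3 and Hk1, Pfkp and Pfkl, and Pfkfb4 and Pfkfb3 did not pass; without Std 3, Slc16a3 shifted against Slc16a1 by 0.50 and Pfkfb4 against Pfkfb3 by 0.85 (exact permutation test, adjusted p = 0.0437 for each), and without CDAA 4 Pfkp shifted against Pfkl by -0.26 (exact permutation test, adjusted p = 0.0499).

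Std 3 was the highest Std array for 15 of 32 members (46.9%), against 19.6% of all genes, and the lowest for 5 (15.6%), against 28.1% of all genes. Slc2a3 was at 8.05 there and at no more than 4.85 in the other Std arrays, Slc16a3 at 6.65 against at most 4.67, and Pfkfb4 at 6.01 against at most 4.58. The neutrophil marker mean of Std 3, 8.89, was above that of every other array, among them 5.45 in CDAA 1, and the part of these cells in the values of Std 3 was not tested. Slc2a3, Slc16a3, Pfkfb4, Hk3 and Pkm are drawn beside that mean. Without Std 3 the 9 members kept their calls and directions, and Slc16a3 and Ldha passed in addition.

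**Figure D4:**
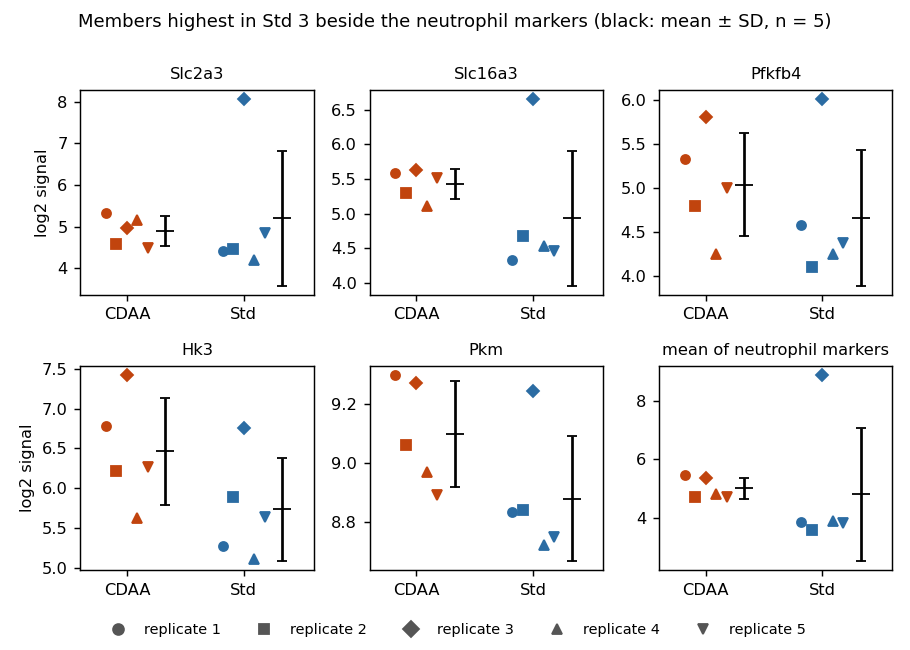
Log2 signal of Slc2a3, Slc16a3, Pfkfb4, Hk3 and Pkm in each array, with CDAA left and Std right, beside the mean of 10 neutrophil markers, with the mean ± SD of each diet in black. In all 6 panels Std 3 (blue diamond) is the highest Std array, and for Slc2a3, Slc16a3, Pfkfb4 and the neutrophil mean it is the highest of all 10.

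CDAA 1 and CDAA 3, the arrays with the lowest pan-endothelial means, often lay at the ends of the CDAA range. They were the highest pair of CDAA arrays for 11 of 32 members (34.4%, against 14.8% of all genes), among them Slc2a1, Tpi1, Aldoc, Hk2, Hk3, Ldha and Pkm. These arrays were the lowest pair for 8 (25.0%, against 18.3% of all genes), among them Epas1, Adm, Ndrg1, Arnt and Ldhb. Without both arrays 7 of the 9 members kept their call, at 1.08 for Slc2a1, 0.77 for Aldoc, 0.61 for Tpi1, 0.49 for Egln3, -0.50 for Ndrg1, -0.79 for Epas1 and -1.12 for Adm, and Slc16a1 and Pfkm did not. In that fit 10.6% of all genes passed. With the pan-endothelial marker mean of each array as a covariate none of the 9 passed after adjustment by limma. Of all genes 1.43% passed after adjustment. Before adjustment 5 of the 9 passed. The share of all genes before adjustment was not computed for this fit, and the 9 were chosen for passing in the same arrays. The pan-endothelial mean was lower in every CDAA array than in any Std array, so the covariate moved with the diet. Every one of the 9 kept its sign: the estimates were 0.80 ± 0.35 for Slc2a1, 0.69 ± 0.26 for Aldoc, 0.37 ± 0.17 for Tpi1, 0.43 ± 0.16 for Egln3 and 0.20 ± 0.15 for Slc16a1 (SE). On the falling side they were -0.91 ± 0.35 for Adm, -0.57 ± 0.29 for Pfkm, -0.41 ± 0.15 for Epas1 and -0.17 ± 0.13 for Ndrg1 (SE). In proportion to the estimates without the covariate, Egln3 moved least and Ndrg1 most. The plot of the 3 fits shows the estimates side by side.

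**Figure D5:**
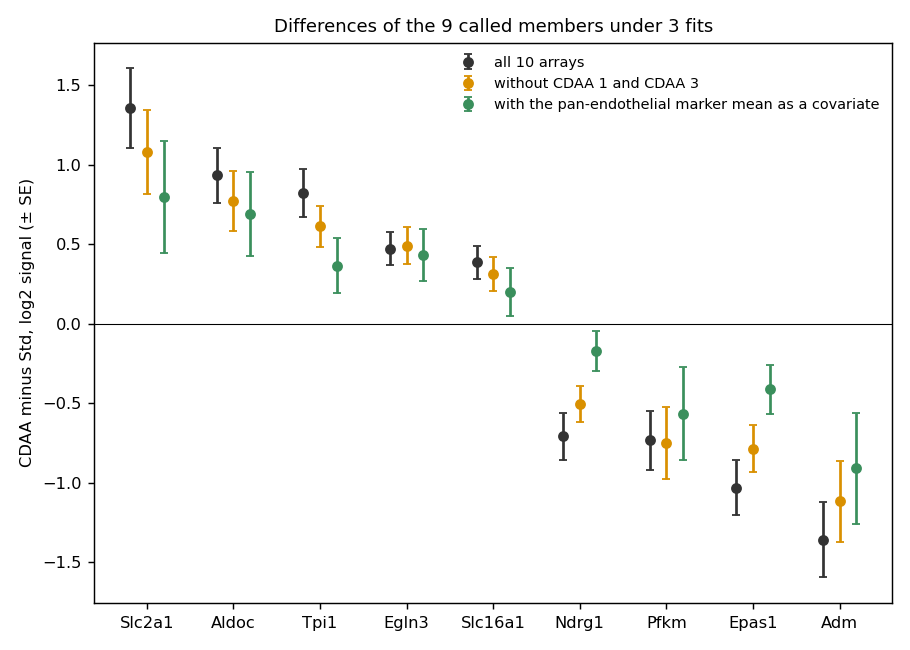
CDAA minus Std difference in log2 signal (± SE) of the 9 members past the threshold with all 10 arrays (black), without CDAA 1 and CDAA 3 (orange) and with the pan-endothelial marker mean as a covariate (green). All 9 keep their sign in the 3 fits; with the covariate Epas1 lies at -0.41 and Ndrg1 at -0.17, nearer to 0 than -1.03 and -0.71 with all arrays.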

How the data were processed

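Log2 signals per probe set were deposited by the authors and had been made with RMA, per the submitters' processing notes, a method that corrects background, quantile-normalizes the arrays and summarises each probe set; its version and the genome build are not given in the sources used here, and background correction could not be varied. Of 25428 probe sets, 24705 carried 1 gene symbol and 723 none; for the 1 gene with 2 probe sets 1 was kept. CDAA was compared with Std by limma 3.58.1 in R 4.3.3 over all 24704 genes, with Benjamini-Hochberg adjustment and a threshold of 0.05. Pairs of related genes were compared by exact permutation of the arrays. The limma code was tested on simulated data. Arrays give no counts, so their number limits the precision; nothing marks a batch. Pearson correlations over genes lay between 0.972 and 0.991 for pairs of CDAA arrays, 0.980 and 0.992 for pairs of Std arrays, and 0.947 and 0.982 for mixed pairs. Members and lists were chosen with earlier results of these data known. All members are named, as are Gapdh, Vegfa, Calcrl, Ramp2 and up to 3 called genes with the largest difference per pathway list (21 genes in all); Fh1, Idh3g, Pdgfb, Plod2, Lox and Ero1a were added after their values were seen, as were the 5 hepatocyte markers. Alternatives changed the normalization, the filter on dim genes, the variance model, the replicate block, a covariate, the tested size and the arrays included.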

Additional observations from a re-analysis of the deposited data

Results flagged for a closer look

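Dixon's test marked the highest or lowest of 5 arrays of a diet when more than 0.71 of their range separated it from its neighbour. Of 64 groups of 5 arrays, 7 were marked, and all 7 marks fell on Std 3. Chance marks about 1 group in 20, but the members share the same arrays, so their marks are not independent. The share of marks over all genes was not computed, so the count cannot be read as particular to these members. Std 3 lay above the other Std arrays for Slc2a3 (8.05, others 4.21 to 4.85), Slc16a3 (6.65, others 4.34 to 4.67), Slc2a1 (7.63, others 6.29 to 6.66), Pfkfb4 (6.01, others 4.10 to 4.58) and Pkm (9.25, others 8.72 to 8.84). It lay below them for Ldhb (8.12, others 8.37 to 8.45) and Egln1 (7.70, others 7.99 to 8.11).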

How the results depend on the processing

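The count of members risen was 5 and of members fallen 4. Leaving out each array in turn gave 4 to 7 and 4 to 6, with 2 to 3 glycolytic enzymes risen, 1 to 2 fallen, 2 other hypoxia targets fallen, 0 risen, and 4 to 8 unequal pairs. The 9 called members kept call and direction with centred array medians, repeated quantile normalization, dim genes left out, an intensity trend with robust variance, and array weights. Arnt passed in addition with dim genes left out and with the intensity trend. The deposited values were already quantile-normalized, so centring and repeated normalization could move the estimates only a little. Slc2a1 was at 1.355 and 1.357 there, beside 1.356. These fits therefore say little about other normalizations. A test against a change of 0.5 on the log2 scale gave 0 risen and 0 fallen members, hence 0 enzymes either way and 0 hypoxia targets fallen; of all genes 1.83% passed. The pan-endothelial covariate gave 0 for the same counts. The share of all genes passing before adjustment was not computed for either of these limma tests. Before adjustment 3 risen and 2 fallen members passed the first, and 3 and 3 the second. With the covariate 5 of the called members were among them. The remaining fall was Hk2, at -0.61 ± 0.23 (SE), where its estimate without the covariate was 0.62 and had not passed. Enzymes fallen were 2 with a replicate block, with genes below the median left out or with array weights (Ldhb joined Pfkm), and 0 without CDAA 1 and CDAA 3. Leaving out CDAA 1, CDAA 3 and Std 3, chosen after seeing the data, added Slc16a3 (0.80) and Pgam1 (-0.74). Deviations of same-numbered arrays of the diets correlated at r 0.016, 0.14, 0.23, 0.25 and 0.095 across genes. Differently numbered arrays were not compared in this way, so whether the numbers mark a pairing was not settled. With the replicate block the 9 members kept their calls and Hk3 and Ldhb passed. No pair passed with the replicate block (0), without CDAA 1 and CDAA 3 (0) or without these and Std 3 (0). The smallest exact permutation p was 0.0625, 0.0357 and 0.0571 there, so a missed threshold says nothing of stability. Without CDAA 1 and CDAA 3, Slc2a1 shifted against Slc2a3 by 1.54, Hif1a against Epas1 by 1.08, Aldoc against Aldoa by 1.17 and Pfkm against Pfkl by -0.96. The shift of Ldhb against Ldha shrank from -0.81 to -0.46, and that of Egln3 against Egln1 from 0.69 to 0.53. Only values that had not passed changed sign, and the cause was not tested. These were, with array weights, Pfkp -0.022, Pgk1 -0.036; with the covariate, Hk1 0.30, Hk2 -0.61, Hk3 -0.41, Pfkp -0.085, Pkm -0.028, Pfkfb4 -0.57, Pdk1 -0.085, Arnt 0.0045, Egln1 0.017, Car9 -0.22, Ramp2 0.017; without CDAA 1 and CDAA 3, Hk1 0.086, Pfkp -0.063, Pdk1 -0.029, Hk2 against Hk1 -0.0034; and without these and Std 3, Slc2a3 0.26, Hk1 0.091, Pfkp -0.046. Single omissions turned the sign of 7 values, whose ranges were -0.54 to 0.42 for Slc2a3 (positive without Std 3), -0.098 to 0.091 for Hk1 (positive without CDAA 3), -0.027 to 0.073 for Pfkp, -0.071 to 0.17 for Pgk1, -0.015 to 0.10 for Pdk1, -0.059 to 0.12 for Bnip3 and -0.042 to 0.50 for Slc16a3 against Slc16a1. Probe sets near the median of all signals and 5 pools per diet limit what could be detected.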

Other observations

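The genes that pass pyruvate on to the mitochondria were measured from lists of the same kind. Of 14 citric acid cycle genes 5 rose, where 7.49% of all genes did, with a median difference of 0.18 beside -0.021 over all genes. In the fit with genes below the median signal left out, 14.9% of the genes rose. Mdh2, malate dehydrogenase, was at 9.41, 9.36, 9.69, 9.27 and 9.39 in CDAA 1 to CDAA 5, against 9.06, 9.04, 9.05, 8.94 and 9.04 in Std 1 to Std 5, and rose by 0.40 ± 0.095 (SE, limma adjusted p = 0.0133), with all CDAA arrays above all Std arrays; without CDAA 1 and CDAA 3 its 0.31 did not pass. Sdhb, Suclg1, Fh1 and Idh3g rose by 0.49, 0.48, 0.32 and 0.29. Each lost its call in single omissions: Sdhb without CDAA 3, CDAA 5, Std 1, Std 3, Std 4 or Std 5 (0.38 to 0.56 over all 10), Suclg1 without CDAA 1, CDAA 3, CDAA 5, Std 1, Std 3 or Std 4 (0.41 to 0.56), Fh1 without CDAA 1, CDAA 3, Std 1, Std 3, Std 4 or Std 5 (0.28 to 0.36) and Idh3g without any array but CDAA 4 (0.25 to 0.32). When the pan-endothelial mean was a covariate, all 5 missed limma's threshold, at 0.16 for Mdh2, 0.13 for Sdhb, 0.34 for Suclg1, 0.20 for Fh1 and 0.23 for Idh3g.

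Of 12 genes of pyruvate entry 1 rose and 2 fell, beside 7.49% and 9.13% of all genes. Dld, a subunit of pyruvate dehydrogenase, rose by 0.43, but not past the threshold without CDAA 1 and CDAA 3 (0.41). Pdk2, a kinase that inactivates the complex, and Pdp2, a phosphatase that restores it, fell by 0.48 and 0.60; Pdk2 lost its call without CDAA 3, CDAA 5, Std 1, Std 3 or Std 4 (-0.56 to -0.40 over all 10 omissions) and Pdp2 without CDAA 1, Std 1, Std 3, Std 4 or Std 5 (-0.69 to -0.45). Of 7 pentose phosphate pathway genes Taldo1, transaldolase, rose by 0.67 and lost its call without CDAA 1, CDAA 3, Std 1, Std 4 or Std 5 (0.54 to 0.77). With the covariate none of these passed, at 0.32 for Dld, -0.31 for Pdk2, -0.72 for Pdp2 and 0.017 for Taldo1.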
